A study of Mus musculus with 8 samples.

Results

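Caspase 8 and 7 genes that act with it were followed across 8 mouse livers: Casp8 itself, Cflar, Fadd, Tradd, Traf2, Casp6, Apaf1 and Casp9. They were taken as the probe sets whose platform annotation gives exactly 1 gene symbol, that of the gene, and came to 102 of the 223771 probe sets on the array and 8 of the 19515 genes tested. RNA of whole liver, from male animals 6 weeks old, was hybridised to Affymetrix mouse gene arrays, 1 array per mouse. All 8 mice carried a deletion of the kinase TAK1 (gene Map3k7) in liver parenchymal cells, abbreviated LPC in the labels. In 4 mice, labelled Tak1/Caspase8 LPC double knockout and called Tak1/Casp8 here, Casp8 was deleted in those cells too. The other 4, labelled Tak1 LPC-KO/Rip3-/- and called Tak1/Rip3, lacked Rip3 (gene Ripk3) and their labels name no change of Casp8. The stated aim was to separate genes under apoptotic control from genes under necrotic control. The sources used here do not name the promoter that drove the recombinase or the deleted exons. Livers with TAK1 present were not analysed here. Every difference below is Tak1/Casp8 minus Tak1/Rip3 on the log2 scale, n = 4 mice per group. A gene passed the test when its p-value from limma, adjusted for all genes, was under 0.05.

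Caspase 8 is the protease at the head of apoptosis that starts at death receptors. Ligand-bound Fas recruits the adaptor FADD, which binds caspase 8. At the TNF receptor, TRADD and TRAF2 first build a signalling complex with RIPK1, and FADD and caspase 8 join it later. The product of Cflar, cFLIP, pairs with caspase 8 and limits its activity, and caspase 8 in turn cleaves the RIP kinases and so restrains necroptosis. In hepatocytes the signal is amplified through mitochondria, whose cytochrome c, once released into the cytosol, assembles APAF1 and caspase 9 into the apoptosome. Caspase 6 is a downstream, executioner-type caspase.

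Of the 8 genes, Casp8 alone passed the test, while the same rule called 6.67% of all genes (4.05% as lower in Tak1/Casp8 and 2.62% as higher). In the Tak1/Rip3 livers its level, the median over 11 probe sets, was 11.28, 11.09, 11.40 and 11.33 (log2 intensity). In the Tak1/Casp8 livers it was 10.07, 9.92, 10.07 and 9.81. The groups did not overlap and stood more than 1 log2 unit apart, while each group spread over less than 0.5 units. The means were 9.97 ± 0.13 (SD) and 11.27 ± 0.13, a difference of -1.31 ± 0.11 (SE, limma adjusted p = 0.000123), so that 40.5% of the Tak1/Rip3 signal remained. In whole liver, fewer cells of a type and less RNA per cell cannot be told apart, and cells other than LPC keep an intact Casp8. This difference follows the labels, since Casp8 is a gene that was targeted.

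**Figure D1:**
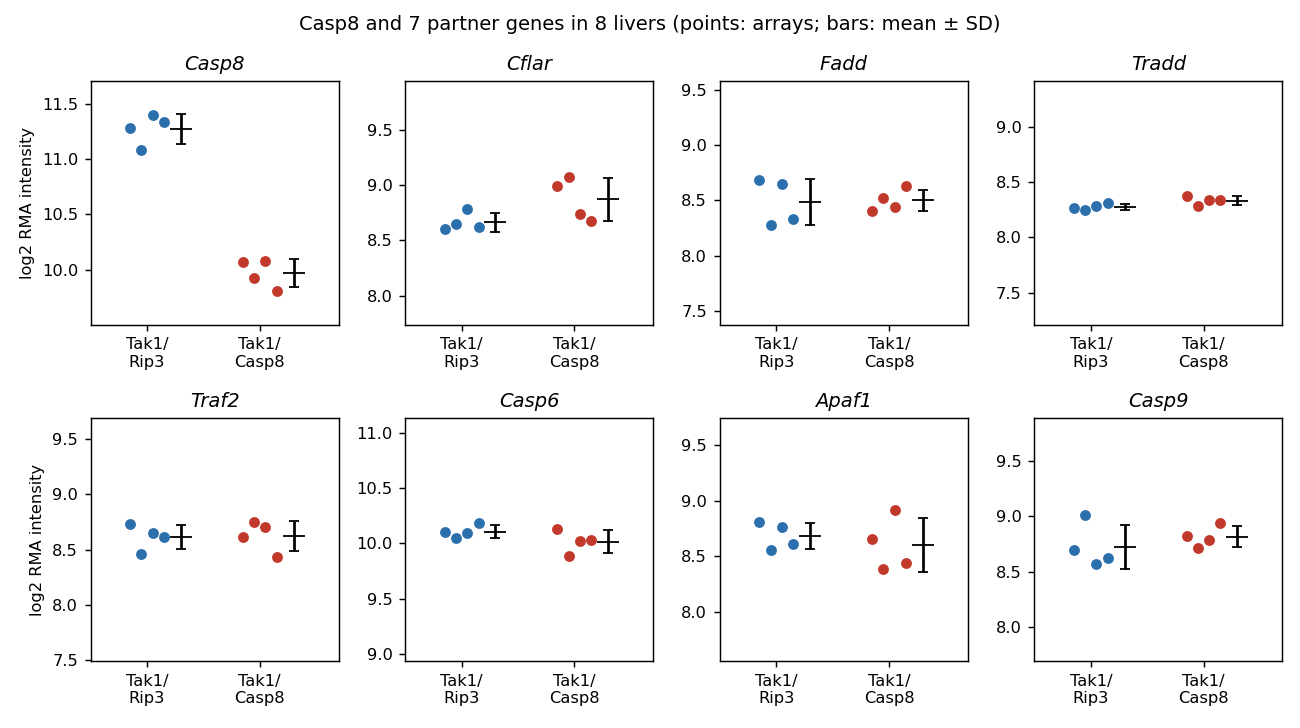
Log2 RMA intensity of each of the 8 genes (panels) in the 4 Tak1/Rip3 (blue) and 4 Tak1/Casp8 (red) livers, with points for arrays and bars for mean ± SD; every panel spans the same range of log2 units. Only the Casp8 panel shows groups that do not overlap, at 9.81 to 10.07 against 11.09 to 11.40.

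Markers of the cell types of the liver, hepatocytes included, were set beside this loss. Macrophage and Kupffer cell markers had a mean level per array of 10.10 to 10.58 in the Tak1/Casp8 livers and 10.03 to 10.55 in the Tak1/Rip3 livers, and none of the 8 passed the test. Of these 8 markers 6 had a positive difference. Cd68, 1 of the 2 with a negative difference and named after its values were seen, had groups without overlap (-0.41 ± 0.15 SE, limma adjusted p = 0.136). Of all genes 8.31% were lower without overlap. Among markers of the other lists that did not pass, Alb, Cd8a, Cd4, Nkg7 and Des were also lower without overlap. Of 8 hepatocyte markers none passed, with 13.13 to 13.23 against 13.16 to 13.26. Alb, Apoa1, Ttr, Cps1 and Apob of that list read 13.42 to 13.95 in the group means, among the brightest genes of the array, with a residual SD between the 0.0051st and the 3.60th percentile of all genes. Whether the array's upper limit holds these values together was not tested. Of 6 neutrophil markers 2 rose, Cxcr2 (limma adjusted p = 0.0124) and, at the threshold itself, Csf3r (0.04999). The mean level of the 6 was 6.78 to 7.12 in the Tak1/Casp8 livers against 6.39 to 6.71 in the Tak1/Rip3 livers. That of 7 T and NK cell markers was 6.51 to 6.53 against 6.64 to 6.76, and none passed. Of 5 B and plasma cell markers 2 fell and 1 rose. Cd79a differed by -1.38 ± 0.15 (SE, limma adjusted p = 0.000709) and Ms4a1 by -1.11 ± 0.17 (0.00441). Jchain differed in the other direction, by 2.03 ± 0.25 (0.00171). Of 6 endothelial markers none passed. All 6 stellate cell markers had a negative difference (median -0.35) and 1, Lrat, fell, with a mean level of 9.33 to 10.01 against 9.94 to 10.35. Of 6 cholangiocyte markers Spp1 rose (0.97), while Epcam differed by -1.05 ± 0.30 (SE, limma adjusted p = 0.0652). Below the lower quartile of the arrays lay 2 of the neutrophil, 2 of the T and NK cell, 2 of the B and plasma cell and 1 of the cholangiocyte markers. Those of the B and plasma cell list were Cd79a and Ms4a1. The part of these cells in the Casp8 difference was not tested.

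Probe sets of this array are about the size of an exon, and those of Casp8 are numbered here from 1 to 11 in the order of their IDs (10346565 to 10346575). All 11 were lower in the Tak1/Casp8 livers, 10 without overlap (6.53% of all probe sets were lower without overlap), and 9 passed the test, in which 1.09% of all probe sets were called lower. The size of the difference varied along this order. At probe sets 5, 6 and 7 the differences were -1.77 ± 0.15 (SE), -1.93 ± 0.16 and -1.95 ± 0.33, which leaves 29.4%, 26.2% and 25.9% of the Tak1/Rip3 signal. Probe sets 2, 3, 4, 8, 9 and 10 kept 44.7% to 52.2%, with differences of -1.16 to -0.94. Probe set 1 differed by -0.10 ± 0.24 and probe set 11 by -0.67 ± 0.19, and neither passed (limma adjusted p = 0.886 and 0.129).

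Probe set 6 read 10.67, 10.41, 10.68 and 10.42 in the Tak1/Rip3 livers and 8.97, 8.57, 8.33 and 8.56 in the Tak1/Casp8 livers. Probe set 7 read 11.28, 11.28, 11.27 and 11.34 in the former, and 9.89, 9.55, 9.70 and 8.23 in the latter. The fourth Tak1/Casp8 liver was lowest at probe set 7, and without it the difference there was -1.58. The groups did not overlap at probe sets 6 and 7. At probe set 1 the Tak1/Rip3 livers read 10.29, 9.25, 10.21 and 10.42 and the Tak1/Casp8 livers 10.04, 9.92, 10.00 and 9.81. There the second Tak1/Rip3 liver lay below all Tak1/Casp8 livers and the other 3 Tak1/Rip3 livers above them. Without that second liver probe set 1 differed by -0.36. Probe set 11 was dim, at 4.83 to 5.27 and 5.51 to 6.27, under the lower quartile of every array (6.47 to 6.52), where RMA compresses differences. The sources used here do not place these probe sets on exons.

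**Figure D2:**
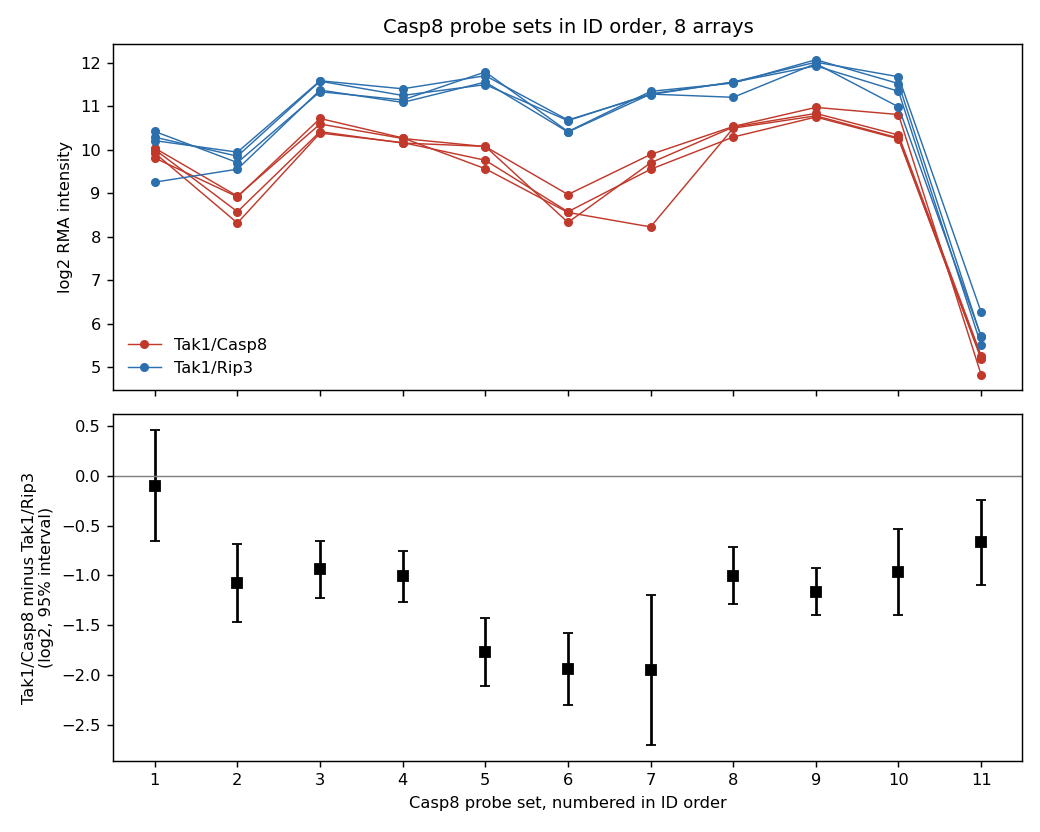
Upper panel: log2 RMA intensity of the 11 Casp8 probe sets in ID order, with a line for each of the 8 arrays. Lower panel: Tak1/Casp8 minus Tak1/Rip3 difference per probe set with its 95% interval from limma. The differences are most negative at probe sets 5 to 7 (-1.77 to -1.95) and nearest to 0 at probe set 1 (-0.10).

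Whether the Casp8 probe sets differed by unequal amounts depended on the test. With each probe set taken relative to the median of its gene on the same array, 0 of 11 passed in limma. Over all 202225 probe sets 0.0381% passed. At an unadjusted p under 0.05 were 8 of the 11, a threshold at which no share over all probe sets was counted. The 11 share 1 reference, the Casp8 median, so these are not separate results. Probe set 1 stood 1.21 ± 0.20 (SE) above the shift of the gene (limma adjusted p = 0.144), and probe sets 5 and 6 stood -0.46 ± 0.10 and -0.63 ± 0.15 below it (0.280 and 0.308). The median of the gene's other probe sets as reference, added after the data had been seen, again gave 0 of 11 passing in limma. Over all probe sets 0.0485% passed, and 9 of the 11 had an unadjusted p under 0.05 (share over all not counted). These 9 are not separate results either, since their references share probe sets. The limma procedure diffSplice, also added then, called Casp8 unequal (F = 8.55, adjusted p = 1.14e-06), as it did 3.97% of 16536 genes. It called 3 of the Casp8 probe sets (1, 6 and 7), and 0.753% of all probe sets. It treats the probe sets of 1 array as independent, which the other tests do not. In diffSplice none of the 7 partner genes was called unequal.

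None of the 7 partners passed the test at gene level in limma, none had an unadjusted p under 0.05, and in all 7 the groups overlapped. Groups without overlap occurred in 14.6% of all genes, 8.31% lower and 6.33% higher. The 7 differences ran from -0.09 to 0.21, and their 95% intervals span ratios of 0.773 to 1.37. The interval of Tradd was the narrowest of the 7, at 0.919 to 1.17, and that of Apaf1 the widest. Of their 91 probe sets 0 passed in limma, against 1.63% of all probe sets (0.542% higher), and 3 had an unadjusted p under 0.05. Shares of all genes or probe sets at an unadjusted p under 0.05 were not counted. Groups without overlap were lower at 2 of the 91 (6.53% of all probe sets) and higher at 2, for which no share was counted.

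**Figure D3:**
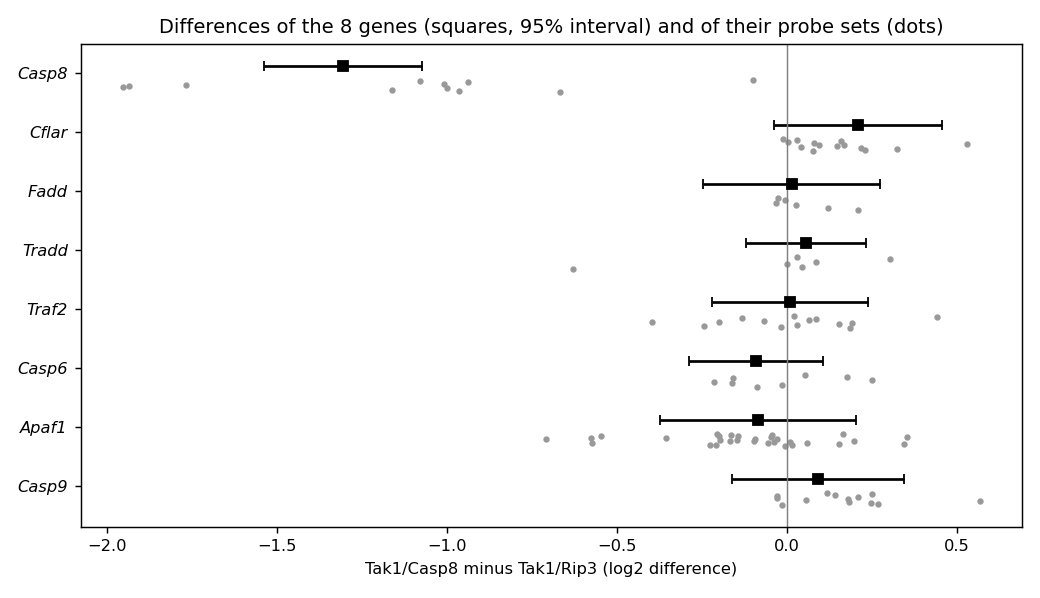
Tak1/Casp8 minus Tak1/Rip3 log2 difference of each of the 8 genes (squares, with the 95% interval from limma) and of their probe sets (dots). The Casp8 square lies at -1.31, and the other 7 lie between -0.09 and 0.21 with intervals that include 0.

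Among the adaptors, Tradd, which links TNF receptor 1 to the complex, varied least. It read 8.26, 8.25, 8.29 and 8.31 in the Tak1/Rip3 livers and 8.37, 8.28, 8.33 and 8.34 in the Tak1/Casp8 livers. Its difference was 0.06 ± 0.08 (SE, limma adjusted p = 0.751), and its residual SD of 0.033 was at the 0.108th percentile of all genes. This SE uses the variance that limma draws toward that of all genes, and not the residual SD alone. The probe sets of Tradd were less even than that median, since the last of 6 differed by -0.63 ± 0.43 and the second by 0.30 ± 0.24. Each of these rested on 1 array: without the fourth Tak1/Casp8 liver the last differed by -0.13, and without the second Tak1/Rip3 liver the second differed by 0.08. With the mean over its probe sets Tradd differed by -0.03, and with the brightest by -0.63, so the sign of its small difference was not stable. Fadd, the adaptor that carries caspase 8 to the receptor, lay between 8.41 and 8.63 in the Tak1/Casp8 livers and between 8.27 and 8.68 in the Tak1/Rip3 livers, a difference of 0.01 ± 0.12 (limma adjusted p = 0.965). Its 6 probe sets, 3 lower and 3 higher, differed by -0.03 to 0.21, and the highest by 0.04 without the first Tak1/Rip3 liver. Traf2, a scaffold and ubiquitin ligase of the TNF receptor complex, lay between 8.43 and 8.75 and between 8.46 and 8.73, a difference of 0.01 ± 0.10 (limma adjusted p = 0.975). Of its 14 probe sets 6 were lower and 8 higher, by -0.40 to 0.44, and the lowest of these differed by 0.08 without the fourth Tak1/Casp8 liver. The ninth had groups without overlap (0.19 ± 0.11) and did not pass. The signs of the Fadd and Traf2 differences also turned under other settings.

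Cflar, the inhibitor, had the largest difference of the partners. It read 8.60, 8.65, 8.78 and 8.62 in the Tak1/Rip3 livers and 8.99, 9.08, 8.74 and 8.68 in the Tak1/Casp8 livers. The first and second Tak1/Casp8 livers lay above every Tak1/Rip3 liver and the other 2 within their range. The difference, 0.21 ± 0.11 (SE), did not pass (limma adjusted p = 0.324, 95% interval -0.04 to 0.46). Of its 14 probe sets 13 had a positive difference, up to 0.53 at the sixth (0.23 without the second Tak1/Rip3 liver), and none passed. The IDs of 3 of the 14 stand apart from the run of the other 11 and lie between those of Ankrd50 and Mfsd8, genes that the RefSeq table places on chromosome 3, whereas Cflar is on chromosome 1. Whether these 3 read Cflar or a similar sequence was not tested. Without them Cflar differed by 0.12 ± 0.11 (limma adjusted p = 0.581), a choice made after the IDs had been seen.

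The downstream caspases and the apoptosome scaffold gave no call either. Casp6 lay between 9.89 and 10.13 in the Tak1/Casp8 livers and between 10.04 and 10.18 in the Tak1/Rip3 livers (-0.09 ± 0.09 SE, limma adjusted p = 0.619). Of its 8 probe sets the fifth had groups without overlap (-0.21 ± 0.10), and it did not pass. Casp9, the initiator of the mitochondrial route, read 8.82, 8.71, 8.79 and 8.94 in the Tak1/Casp8 livers and 8.69, 9.01, 8.57 and 8.62 in the Tak1/Rip3 livers. Its difference was 0.09 ± 0.11 (limma adjusted p = 0.704), and the highest of its 8 values was that of the second Tak1/Rip3 liver. The ID of 1 of the 13 Casp9 probe sets stands apart from the others, and without it Casp9 differed by 0.11 ± 0.11 (limma adjusted p = 0.634). Of the 13 probe sets 10 were positive, and the ninth, at 0.57 ± 0.16 and without overlap, had the smallest p of all 91 partner probe sets (limma adjusted p = 0.131). Apaf1, which forms the wheel of the apoptosome, lay between 8.38 and 8.92 in the Tak1/Casp8 livers and between 8.56 and 8.80 in the Tak1/Rip3 livers (-0.08 ± 0.13, limma adjusted p = 0.768). Of its 30 probe sets 22 were negative and 8 positive, from -0.71 to 0.35. The lowest, the twelfth, read 5.82 in the fourth Tak1/Casp8 liver and differed by -0.07 without it. The eleventh had groups without overlap (-0.35 ± 0.14).

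Casp8 and Cflar are neighbours on chromosome 1, where Cflar is the nearest measured gene on one side of Casp8 and Trak2 on the other. None of the 10 nearest measured genes, 5 on either side, passed in limma, and 5 differences were negative and 5 positive. An unadjusted p under 0.05 was found in 2, and the share of all genes at that threshold was not counted. Trak2, an adaptor of mitochondrial transport, had groups without overlap and differed by 0.23 ± 0.08 (SE, limma adjusted p = 0.147), and Tmem237 by -0.23 ± 0.09 (0.175). The remaining 8 lay between -0.20 and 0.26: Orc2 (-0.12), Fam126b (-0.18), Ndufb3 (-0.09), Flacc1 (0.19), Cflar, Stradb (0.21), C2cd6 (0.26) and Mpp4 (-0.20).

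**Figure D4:**
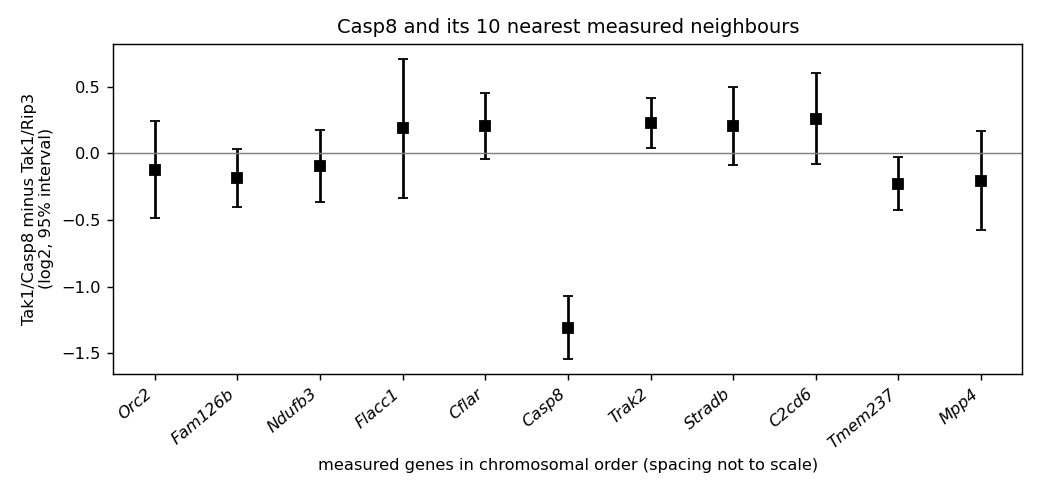
Tak1/Casp8 minus Tak1/Rip3 log2 difference, with its 95% interval from limma, of Casp8 and the 5 nearest measured genes on either side, in chromosomal order and not to scale. Casp8 lies at -1.31, and its 10 neighbours lie between -0.23 and 0.26.

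Casp8 was a targeted gene, and a part of promoter sequence in its difference was not tested. The 250 bases upstream of the starts of Casp8 and Cflar, which are adjacent, are shown as a description. They are from RefSeq (GRCm38.p6), both on the + strand and 5′ to 3′, with CpG dinucleotides in capitals, and cover chr1:58802252-58802501 for Casp8 and chr1:58711241-58711490 for Cflar.
Casp8: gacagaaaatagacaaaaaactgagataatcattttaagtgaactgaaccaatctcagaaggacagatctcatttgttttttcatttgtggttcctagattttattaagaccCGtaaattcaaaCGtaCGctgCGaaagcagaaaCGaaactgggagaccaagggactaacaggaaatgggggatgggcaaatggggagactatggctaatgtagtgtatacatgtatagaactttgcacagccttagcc
Cflar: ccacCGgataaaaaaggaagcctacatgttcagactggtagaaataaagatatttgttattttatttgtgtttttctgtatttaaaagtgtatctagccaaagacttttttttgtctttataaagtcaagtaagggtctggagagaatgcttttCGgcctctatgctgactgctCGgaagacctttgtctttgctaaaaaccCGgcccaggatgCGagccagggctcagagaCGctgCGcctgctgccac
Both windows are poor in G and C, at 39.6% for Casp8 and 42.8% for Cflar (11.0th and 17.9th percentile of 32851 RefSeq windows of this length), with 5 and 7 CpG dinucleotides. The windows of Fadd, Traf2, Casp6, Casp9 and Apaf1 held 58.4% to 75.6% G and C and 11 to 42 CpG dinucleotides, against a median of 52.4% and 6 over all windows. Of the 8 genes 7 matched this table. The GC box GGGCGG, searched on both strands, occurred once or more in the windows of Fadd (2), Casp6 (1), Apaf1 (2) and Casp9 (4) and in 32.7% of all windows. It was not found in those of Casp8, Cflar and Traf2. The core of the interferon-stimulated response element, GAAA, any 2 bases and GAAA (2.98% of all windows), and the NF-kB consensus motif (7.25%), searched the same way, were found in none of the 7. These are matches of letters in reference sequence, and no binding was measured.

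Other genes of the pathway were counted in 7 lists. Of 55 measured genes 3 rose and 3 fell in the Tak1/Casp8 livers (limma), which is 10.9% against 6.67% of all genes. Ripk3, 1 of the 3 that rose, is knocked out in the Tak1/Rip3 mice, and without it 5 of 54 passed (9.26%). Their median difference was -0.0008, beside 0.01 over all genes. Among the ligands none of 6 passed (median 0.06), with Tnf at 0.02, Lta at 0.14 and Ltb at 0.09. Among death receptors and decoys none of 9 passed (median 0.18). Fas differed by 0.38 ± 0.15 (SE, limma adjusted p = 0.176), Tnfrsf1a, the main TNF receptor, by 0.20 ± 0.10 (0.275) and Tnfrsf1b by -0.04. The TRAIL receptor Tnfrsf10b, named after its values were seen, had groups without overlap (8.09, 8.12, 8.13 and 8.15 against 8.55, 8.87, 8.25 and 8.74) and came nearest to a call (-0.48 ± 0.13, limma adjusted p = 0.0525). Tnfrsf11b, also named after its values were seen, had groups without overlap in the other direction (0.38 ± 0.12, limma adjusted p = 0.0900).

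Of the 6 calls 3 lay in the list of kinases, ubiquitin enzymes and other adaptors of the receptor complex, in which 2 of 16 rose and 1 fell (median 0.0008). Birc3, the ubiquitin ligase cIAP2 that TRAF2 brings to the complex, rose by 0.61 ± 0.12 (SE, limma adjusted p = 0.0145). It read 9.43, 9.30, 9.63 and 9.30 in the Tak1/Casp8 livers and 8.82, 8.55, 8.97 and 8.90 in the others, without overlap. Tnfaip3, which encodes the ubiquitin-editing enzyme A20, rose by 0.56 ± 0.14 (limma adjusted p = 0.0461), from 7.97 to 8.60 in the Tak1/Rip3 livers to 8.61 to 9.06. Traf5, a relative of Traf2, fell by 0.47 on the log2 scale (SE 0.11, limma adjusted p = 0.0262), to 7.30 to 7.58 from 7.70 to 8.00, while Traf2 itself differed by 0.01. The Birc3 call held without any 1 array and was lost with the brightest probe set, where the difference was larger (0.98, limma adjusted p = 0.136). Traf5 lost its call without any 1 of 6 arrays (up to adjusted p = 0.0821), with the mean over probe sets (-0.24) and with the brighter probe sets (-0.07), and turned to 0.10 with the brightest probe set, and Tnfaip3 lost its call without any 1 of 6 arrays (up to 0.111). Tnfaip3 also lost it with the mean (0.50), the brightest (0.49) and the brighter probe sets (0.52), with limma adjusted p of 0.0722, 0.129 and 0.0525. Map3k7, deleted in LPC of both groups, differed by -0.08 ± 0.10 (limma adjusted p = 0.695). Ripk1, the kinase that caspase 8 cleaves, had groups without overlap and differed by 0.23 ± 0.09 (limma adjusted p = 0.163).

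**Figure D5:**
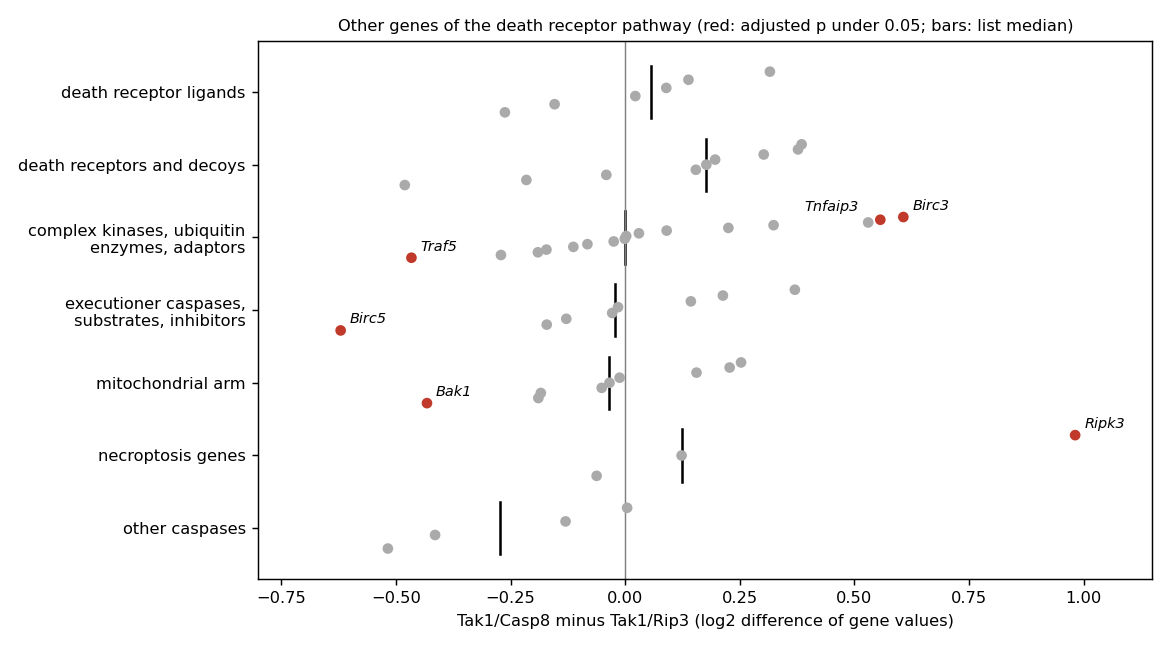
Tak1/Casp8 minus Tak1/Rip3 log2 difference of 55 genes in 7 lists of the death receptor pathway, with red dots and names for the 6 that passed in limma and a bar at each list's median. Ripk3 lies furthest to the right (0.98) and Birc5 furthest to the left (-0.62).

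Beyond the receptor complex 3 genes passed. Bak1, which permeabilises the outer mitochondrial membrane, was the only called gene of the 9 measured in the mitochondrial arm, in which its relative Bax was not analysed here, and fell by 0.43 on the log2 scale (SE 0.09, limma adjusted p = 0.0148). It read 9.20, 9.23, 9.14 and 9.12 in the Tak1/Casp8 livers and 9.68, 9.54, 9.66 and 9.54 in the Tak1/Rip3 livers, without overlap. Bid, the substrate that joins caspase 8 to mitochondria, differed by 0.23 ± 0.10 (SE, limma adjusted p = 0.201), Bcl2 by -0.03 and Bcl2l1 by 0.16. Among 8 measured genes of the list of caspases, their substrates and inhibitors Birc5 (survivin, an inhibitor of apoptosis that also serves in mitosis) fell by 0.62 on the log2 scale (SE 0.16, limma adjusted p = 0.0453). Its groups overlapped, at 6.96 to 7.79 against 7.77 to 8.01, and the call was lost without any 1 of 7 arrays (up to adjusted p = 0.118). The difference was -0.95 with the mean over probe sets and -1.87 with the brightest, both called (limma adjusted p = 0.00200 and 0.00527). Casp2, Xiap and Dffa, of the same list, differed by -0.13, 0.14 and -0.17. The Bak1 call was lost without the first Tak1/Rip3 liver (-0.41, limma adjusted p = 0.0516) and with the brightest probe set (-0.40, limma adjusted p = 0.106).

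Ripk3, knocked out in the Tak1/Rip3 mice, was higher in the Tak1/Casp8 livers by 0.98 ± 0.17 (SE, limma adjusted p = 0.00781) and differed by -0.04 with its brightest probe set. The necroptosis effector Mlkl differed by 0.12 ± 0.10 (limma adjusted p = 0.547) and the sensor Zbp1 by -0.06 ± 0.14. None of the 4 remaining mouse caspases passed (median -0.27). Casp1 and Casp4, the inflammatory caspases, differed by -0.41 ± 0.13 (limma adjusted p = 0.0846) and -0.52 ± 0.23 (0.230). Casp12 varied most, at 8.88, 8.02, 9.49 and 7.33 in the Tak1/Casp8 livers against 8.18 to 8.67 in the Tak1/Rip3 livers, with a difference near 0.

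The 5 named genes outside the set whose level over the 8 arrays was most like that of Casp8 were Clec7a, Akr1c18, Vstm4, Rhoc and Phlda3, with Pearson r of 0.991, 0.991, 0.990, 0.988 and 0.988. This likeness is a description over 8 arrays in 2 groups, and all 5 were called lower in the Tak1/Casp8 livers, as Casp8 was. Their sizes were unlike: Akr1c18 differed by -5.33 ± 0.31 (SE), far more than Casp8 (-1.31), and Vstm4 by -0.58 ± 0.09. Clec7a, the beta-glucan receptor of myeloid cells, differed by -1.55 ± 0.12. Phlda3, a target of p53, differed by -0.98 ± 0.12 and the small GTPase gene Rhoc by -0.55 ± 0.09. Within the set r with Casp8 over the 8 arrays ran from -0.62 (Tradd) to 0.60 (Casp6). With the group means removed it ran from -0.79 (Casp9) to 0.70 (Apaf1), and that of Tradd turned to 0.55.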

How the data were processed

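Total RNA of snap-frozen liver was measured on 8 Affymetrix arrays, 1 per mouse, in groups of 4 set by the genotype label. The deposited values are log2 intensities. Per the submitters' processing notes the authors used RMA, whose version is not stated there. Its background correction compresses differences of dim probe sets, and it forces like distributions on the arrays. Array medians lay between 8.06 and 8.16. Of 223771 probe sets 206316 carried exactly 1 symbol in the platform annotation, which is old, so 2624 symbols were updated through a RefSeq gene table (GRCm38.p6). That table also gave the order of neighbouring genes, and the sources used here name no build for the annotation.

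A gene value was the median over its probe sets on each array (19515 genes, 19464 of them in the RefSeq table). No filter was set. Differences were tested with limma 3.58.1 in R 4.3.3 (lmFit and eBayes, two-sided, Benjamini-Hochberg adjustment over all genes or all probe sets), with the group as the only term. Genes with at least 3 probe sets entered the fits of probe sets within a gene. In that fit against the gene median a probe set that is itself the median has no spread. Figures were drawn with matplotlib 3.10.9 under Python 3.11.15. The gene fit alone was tested on simulated data, with independent noise, and the fits of probe sets were not. The members, lists and tests were chosen with earlier results of these data known. The text names the 8 genes, the neighbours, the genes most like Casp8, and in each pathway list those that passed or else up to 3 in list order. A few others (Mlkl, Zbp1, Ripk1, Casp1, Casp4, Casp12, Bid, Bcl2, Bcl2l1 and Dffa among them) were named after their values were seen. No label gives a litter, cage, scan or batch. The titles carry running numbers, 1 to 4 for Tak1/Rip3 and 7 to 10 for Tak1/Casp8, whose meaning is not stated, so their order and the group cannot be told apart. No batch was tested. SE, intervals and p-values from limma rest on the spread between these mice after eBayes drew each variance toward a value shared by all rows fitted. The number of arrays limits the precision.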

Additional observations from a re-analysis of the deposited data

Results flagged for a closer look

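In 38 groups of 4 values (each of the 8 genes and each of the 11 Casp8 probe sets, in both groups) 3 values stood far from the other 3, where chance alone gives about 1 in 20 groups. At Casp8 probe set 8 the second Tak1/Casp8 liver read 10.29, with the other 3 between 10.49 and 10.53, and the second Tak1/Rip3 liver read 11.20, with the other 3 between 11.53 and 11.55. At Casp8 probe set 10 the first Tak1/Casp8 liver read 10.81, with the other 3 between 10.25 and 10.34.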

How the results depend on the processing

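The Casp8 gene difference kept its direction and its call under all 16 alternatives, between -1.37 and -1.25 with each array left out in turn (adjusted p up to 0.000995), and Casp8 remained the only called gene of the 8 throughout. The number of called Casp8 probe sets, 9, was 5 to 8 with each array left out, with 5 without the first Tak1/Rip3 or the second Tak1/Casp8 liver. Of the Casp8 probe sets against the gene median, 0 passed in limma under every alternative that could be fitted other than diffSplice, and 3 with limma diffSplice. Among the 55 measured pathway genes the number called was 6 in the main setting. It was 2 with the brightest probe set, where Birc5 alone of the 6 kept its call. With each array left out it was 2 to 5, with 2 without Tak1/Rip3 replicate 1 and 3 without Tak1/Rip3 replicate 2. It rose to 9 with the mean over probe sets and with array weights. With a filter at the 30th percentile of mean level, and with trend and robust eBayes, it was 8. The neighbours gave 0 calls in limma throughout (2 at an unadjusted p under 0.05 in the main setting). Over all genes 1302 were called, 747 with the brightest probe set, 700 without Tak1/Rip3 replicate 1 and 1953 with array weights. Signs turned for small differences: Fadd with the brighter probe sets (-0.10), with array weights (-0.0248) and within -0.0561 to 0.0791 with each array left out, Traf2 with the brightest (-0.0177) and the brighter probe sets (-0.0824) and within -0.0413 to 0.0728, and Tradd with the mean over probe sets (-0.0272) and the brightest (-0.63). With the brightest probe set Traf5 (0.10) and Ripk3 (-0.0357) also turned. No sign turned for Cflar, Casp6, Apaf1 or Casp9 under the settings run. The causes were not tested. Birc5 also lost its call with quantile normalization (adjusted p = 0.0642) and with arrays shifted to 1 median (0.0670). No paired analysis was possible because the groups share no number: the titles carry running numbers, 1 to 4 for Tak1/Rip3 and 7 to 10 for Tak1/Casp8. Arrays have no depth, and dim probe sets such as the last of Casp8 limit what can be seen there.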
